A study of Mus musculus with 4 samples.

Results

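The genes described here build the ribbon synapse of inner hair cells (IHCs) or serve glutamate release at it. They were measured in cochleae from which the outer hair cells (OHCs) had been ablated. The 10 genes are Otof, Slc17a8, Cacna1d, Cacnb2, Cabp2, Ctbp2, Bsn, Pclo, Rims2 and Rbm24. Every non-control probe that carries 1 of these names on the array was taken, which gave 17 of 39429 probes and 10 of 30028 gene names. The comparison asks whether a lower level after OHC ablation was shared by all of these genes or seen in a few, against each of the 3 other arrays.

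Whole cochlear RNA was measured in 4 groups of mice aged 5 weeks and labelled B6J (the transgene was introduced into C57BL/6J eggs), with 1 Agilent 1-colour array per group. Untreated wild-type mice carried no transgene and received no toxin. DT-treated wild-type mice received 50 μg/kg of diphtheria toxin (DT) 7 days before dissection. Untreated Prestin-hDTR mice, labelled OHC-TRECK, carried a human DT receptor under the promoter of prestin, the motor protein gene of OHCs, and DT-treated Prestin-hDTR mice carried it and received the same dose. RNA of both sexes was pooled within each group, given as n = 8 with 4 females and 4 males, and the sources do not settle whether the 8 are mice or cochleae. The transgenic mice come from a single founder line with 1 integration site. No group had a second array, so no test over samples was possible and no p-value is given. The 3 arrays other than that of the DT-treated Prestin-hDTR mice serve as controls, and their spread also holds any effect of the transgene or of the toxin itself.

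IHCs pass sound information to the auditory nerve by releasing glutamate at ribbon synapses, where an electron-dense ribbon holds vesicles near clustered calcium channels. OHCs amplify sound mechanically and have far fewer afferent contacts, although they too form small ribbons. Otoferlin is the calcium sensor of release in hair cells, and VGLUT3, encoded by Slc17a8, loads their vesicles with glutamate. Of the other members, Cabp2 and Rbm24 are known in both hair cell types, Bsn and Pclo are widely used at synapses of neurons, and Ctbp2 encodes both the ribbon protein RIBEYE and a nuclear corepressor found in many cells. In whole cochlear RNA, fewer cells of a type and less RNA per cell cannot be told apart. By the authors' cell counts, the number of IHCs did not change in DT-treated Prestin-hDTR mice, while almost all OHCs were lost.

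The array reads each gene through probes of 60 bases. The first 30 bases of the probes on which the results turn are given below, 5′ to 3′ and in lower case as listed in the array files: the 5 probes with the largest differences, the further probes of the same genes that gave a signal on every array, and the probe of Ctbp2, whose level lay within the range of the controls. Probes of a gene are numbered from the brightest.
Rbm24: acttcctacaatggataatttttatggact
Cabp2: gatggcctggttgactttgaagaatttgtt
Otof: tacacttaaagcggtgcccttctgcctctg
Slc17a8 probe 1: ttggattttcccataccaaaggagtggcta
Slc17a8 probe 2: ctttcttggaaagtatggtcagatgatata
Pclo probe 1: gtatcagctgtgttgggcatgtgaatatcc
Pclo probe 2: gtaaactgtgccgtataaaggttgttgtac
Pclo probe 3: aacccctccctgatgacataagtccacaga
Ctbp2: taggacgtgattattaacgaccaacttctg

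By the mouse build mm9 of the array annotation, the Rbm24 probe lies at chr13:46526275-46526334 on the plus strand and the Otof probe at chr5:30669401-30669460 on the minus strand. The Cabp2 probe covers chr19:4086574-4087148 on the plus strand, a span of 575 bases, so that its 60 bases cross at least 1 intron. For Slc17a8, on the minus strand, probe 1 lies at chr10:89046159-89046218 and probe 2 nearer the 3′ end at chr10:89037630-89037689. The Pclo probes lie in the order 3, 1, 2 along the plus strand, at chr5:14682209-14682268, chr5:14795934-14795993 and chr5:14863399-14863458. The Ctbp2 probe, at chr7:140179625-140179684 on the minus strand, lists 2 RefSeq and 2 Ensembl transcripts and was not designed against RIBEYE alone. No probe under another gene name lists a transcript of a member.

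Signals are given as log2 values relative to the 75th percentile of the array, so that 0 is the level of that percentile. A probe counted as measured on an array where the scanner software found it well above background, and as tested where this held on at least 1 array. A probe below background was set to the lowest signal well above background of that array, and its difference is then a bound. Where its own signal was higher, that signal was kept, and the difference is an uncertain estimate. The error given after ± is the noise estimate of the software for the spots and leaves out the differences between mice. Of the 17 probes, 16 were tested and 13, of 9 genes, were measured on all 4 arrays. Levels of different probes depend on their sequences and are not compared. Between 62.2% and 70.6% of all probes were well above background on an array, no member spot was saturated or marked as an outlier, and repeated spots of a probe had a median SD of 0.061 to 0.071 on the log2 scale.

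DT-treated Prestin-hDTR mice showed the lowest level of the 4 groups for 10 of the 13 member probes measured on all arrays, beside 35.2% of all 23688 probes so measured. Over the tested probes, with signals below background at the values just described, the count was 11 of 16, beside 31.4% of all 28675 tested probes. The added probe is that of Rims2, which was below background in both DT-treated groups and has no measured order between them. A level at least 20% lower than on each of the 3 other arrays (0.32 on the log2 scale), the mark used here for a modest difference, was seen for 5 member probes, 1 each of Rbm24, Cabp2, Otof, Pclo and Slc17a8, beside 4.39% of all tested probes. These 5 were measured on every array, whereas the tested probes include some below background. No member probe was lower by 2-fold or more against all 3 arrays (0.227% of all probes). None was higher by the same log2 difference, or 25%, in DT-treated Prestin-hDTR mice than on all other arrays (5.47% of all probes). With the brightest tested probe standing for each gene, 7 of the 10 genes, again with Rims2 below background, were lower than on all 3 arrays (31.2% of 21942 genes) and 4 by at least 20% (4.42% of genes). No member gene was higher by 25% (5.75% of genes). The difference was unequal among the members: log2 ratios against the mean of the 3 control arrays ran from -1.05 to 0.01 over the 13 probes measured on all arrays, whereas the control arrays differed among themselves by 0.07 to 0.31 at these probes.

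**Figure D1:**
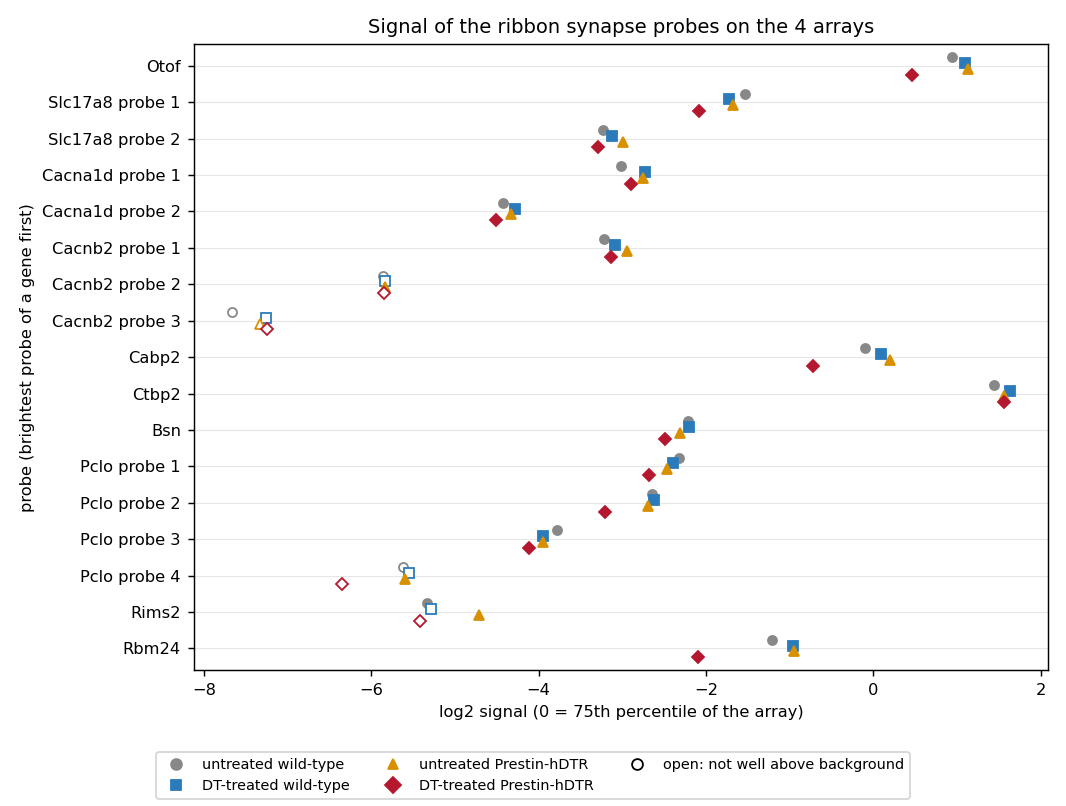
Log2 signal (0 is the 75th percentile of the array) of the 17 member probes on the 4 arrays, 1 point per array, with probes of a gene ordered by brightness and open points for signals not well above background. The point of the DT-treated Prestin-hDTR mice lies apart to the left for Rbm24, Cabp2, Otof, Pclo probe 2 and Slc17a8 probe 1, and among the other points for Ctbp2, Cacnb2 probe 1 and Cacna1d probe 1.

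Rbm24, an RNA-binding protein that controls splicing in hair cells and muscle, showed the largest difference of the members. Log2 signals of -1.21 and -0.96 were found without and with toxin in wild-type mice, and of -0.94 and -2.09 without and with toxin in Prestin-hDTR mice. The 3 control arrays lay within 0.27 of each other and the fourth lay below them all. The log2 ratio against their mean was -1.05 ± 0.17, and the level was 1.84-fold lower than in untreated wild-type mice, the nearest of the controls, and 2.21-fold below untreated Prestin-hDTR mice, the farthest. Rbm24 is not a component of the synapse itself and is the only member of its role.

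Among the calcium channel genes, Cabp2 stood apart from the channel subunits. Cabp2 is a calcium-binding protein that slows the inactivation of the channel, and its log2 signals were -0.10, 0.09 and 0.20 on the control arrays, in the order above, and -0.72 in DT-treated Prestin-hDTR mice. Its log2 ratio was -0.78 ± 0.17, with levels 1.53-fold to 1.89-fold below the single control arrays and a control range of 0.31. Cacna1d encodes CaV1.3, the pore of the channel of IHCs, and its probe 1 gave -3.02, -2.73 and -2.75 on the control arrays and -2.90 in DT-treated Prestin-hDTR mice. That level lay between those of the controls, with a log2 ratio of -0.07 ± 0.18.

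Cacna1d probe 2, a dimmer probe, gave -4.43, -4.28, -4.34 and -4.51 in the same order. Its DT-treated Prestin-hDTR level was the lowest, but by 0.07 from the nearest control, which is less than the error of 0.29 of its log2 ratio of -0.16. Cacnb2, the auxiliary subunit that carries the channel to the membrane, gave -3.22, -3.09, -2.94 and -3.14 at probe 1. Its level after ablation also lay within the control range, and the log2 ratio was -0.06 ± 0.18. Cacnb2 probe 2 was measured in untreated Prestin-hDTR mice only and probe 3 on no array, so neither gave a difference. Against the single control arrays, the log2 ratios of Cacna1d probe 1 (0.12, -0.17 and -0.15) and of Cacnb2 probe 1 (0.08, -0.05 and -0.20) took both signs.

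Both vesicle genes were lowest on the array of DT-treated Prestin-hDTR mice, Slc17a8 by an amount that depended on the probe. Otof gave log2 signals of 0.94, 1.09 and 1.14 on the control arrays, in the order above, and 0.46 in DT-treated Prestin-hDTR mice. The controls spanned 0.20 and the log2 ratio was -0.59 ± 0.17, a level 1.39-fold to 1.60-fold below the single controls. Slc17a8 probe 1 gave -1.54, -1.72, -1.67 and -2.08, a log2 ratio of -0.44 ± 0.17. It was 1.28-fold below DT-treated wild-type mice, just past the mark of 20%, and 1.46-fold below untreated wild-type mice. Slc17a8 probe 2, toward the 3′ end, gave -3.24, -3.12, -2.99 and -3.29. Here the level was again the lowest of the 4, but 1.04-fold below untreated wild-type mice, and the log2 ratio of -0.17 ± 0.18 was within the error. The pair of Slc17a8 probes therefore gave the same direction and not the same size, and only probe 1 passed the mark of 20%. The paper's own qRT-PCR of cochlear RNA found the Slc17a8 transcript not significantly changed after ablation. A lower Slc17a8 level is thus not established by these arrays.

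The ribbon and active zone genes spanned log2 ratios from -0.55 to 0.01 where they were measured on all arrays. Ctbp2 gave 1.45, 1.63, 1.57 and 1.56, with a log2 ratio of 0.01 ± 0.17 and a level inside the range of the controls. Bsn, the scaffold protein that anchors the ribbon at the membrane, gave -2.22, -2.21, -2.31 and -2.49. It was the lowest after ablation by 1.13-fold to 1.22-fold, with a log2 ratio of -0.25 ± 0.17, below the controls by more than their range of 0.10. Among the probes short of a 20% lower level against every control, Pclo probe 1 and Bsn came nearest.

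Pclo encodes piccolo, the larger relative of bassoon, a short form of which is found at ribbons. Its 3 measured probes were each lowest after ablation, by unequal amounts. Probe 2, the nearest to the 3′ end, gave -2.65, -2.62, -2.70 and -3.21, a log2 ratio of -0.55 ± 0.19 beside a control range of 0.07. Probe 1 gave -2.32, -2.39, -2.46 and -2.68, a log2 ratio of -0.29 ± 0.18, with its nearest control 1.16-fold above. Probe 3 gave -3.79, -3.95, -3.95 and -4.12, a log2 ratio of -0.22 ± 0.21. The size of the difference thus depended on the probe by which Pclo was read, as for Slc17a8, and the transcripts behind each probe were not told apart. Pclo probe 4 was measured in untreated Prestin-hDTR mice only and gave no difference.

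Rims2, the scaffold protein that ties channels and vesicles together, was near the limit of detection. Of the untreated mice, wild-type had a log2 signal of -5.33 and Prestin-hDTR of -4.71, and it was not well above background in either DT-treated group. After ablation its own signal was 1.07-fold lower than the first of these and 1.64-fold lower than the second. The log2 ratios were -0.09 ± 0.44 and -0.71 ± 0.40, uncertain estimates from a signal not well above background. The untreated arrays differed by 0.62 from each other, and no difference against DT-treated wild-type mice could be measured.

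**Figure D2:**
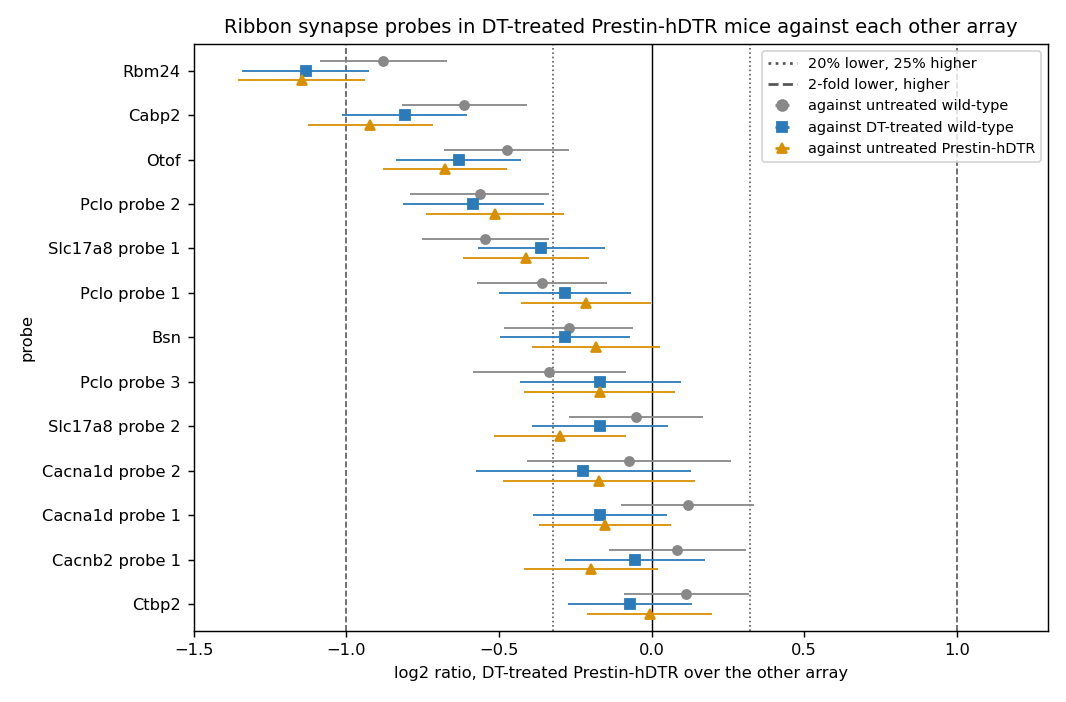
Log2 ratio of DT-treated Prestin-hDTR mice over each of the 3 other arrays for the 13 member probes measured on all arrays, with bars for the software error and lines at 20% lower and 25% higher (dotted) and at 2-fold (dashed). All 3 points lie past the left dotted line for Rbm24, Cabp2, Otof, Pclo probe 2 and Slc17a8 probe 1, and on both sides of 0 for Cacna1d probe 1, Cacnb2 probe 1 and Ctbp2.

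Seen over the 13 probes, 10 were lowest in DT-treated Prestin-hDTR mice. At 8 of them the distance to the nearest control was larger than the whole range of the controls, as at 14.8% of all probes measured on every array. At 6 of them the difference exceeded the software error against all 3 arrays, as at 8.36% of those probes. The median log2 ratio over the 10 genes, with Rims2 at its own dim signals, was -0.30, with an SD of 0.34 between genes, beside a median of 0.0067 and an SD of 0.37 over all tested genes. Against the single arrays the gene median was -0.32 for untreated wild-type, -0.28 for DT-treated wild-type and -0.31 for untreated Prestin-hDTR mice. Taking each control array in turn, 0 member probes were at least 20% lower than on the other 3 arrays. The share of all tested probes was 2.25% for untreated wild-type, 0.492% for DT-treated wild-type and 4.9% for untreated Prestin-hDTR mice. It includes probes below background, whose lowest set value differed by array (-5.93, -5.48 and -6.39 in this order). At shares this low, few or no calls among 16 tested member probes would be usual. These counts alone therefore do not set the members apart.

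Toxin was also given to wild-type mice, so its effect can be read in each genotype. In wild-type mice, the log2 ratio of DT-treated over untreated was 0.25 for Rbm24, 0.19 for Cabp2 and 0.16 for Otof, so that these genes were slightly higher after toxin. In Prestin-hDTR mice the same ratio was -1.15 for Rbm24, -0.92 for Cabp2 and -0.68 for Otof. The difference between the genotypes, as Prestin-hDTR minus wild-type, was -1.40 ± 0.29 for Rbm24, -1.12 ± 0.29 for Cabp2 and -0.83 ± 0.29 for Otof. For Pclo probe 2 it was -0.53 ± 0.31. The other measured Pclo probes stayed within the error, with -0.14 ± 0.30 for probe 1, the brightest, and -0.003 ± 0.35 for probe 3. Slc17a8 probe 1 was lower after toxin in both genotypes, by log2 ratios of -0.18 and -0.41, and its difference of -0.23 was smaller than the error of 0.29. The median difference over the 10 genes was -0.39, beside 0.030 over all tested genes. Of the 13 probes measured on all arrays, 10 were higher after toxin in wild-type and lower after toxin in Prestin-hDTR mice (19.2% of all probes so measured), and at 7 of these the difference between the genotypes exceeded the software error (7.21%).

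**Figure D3:**
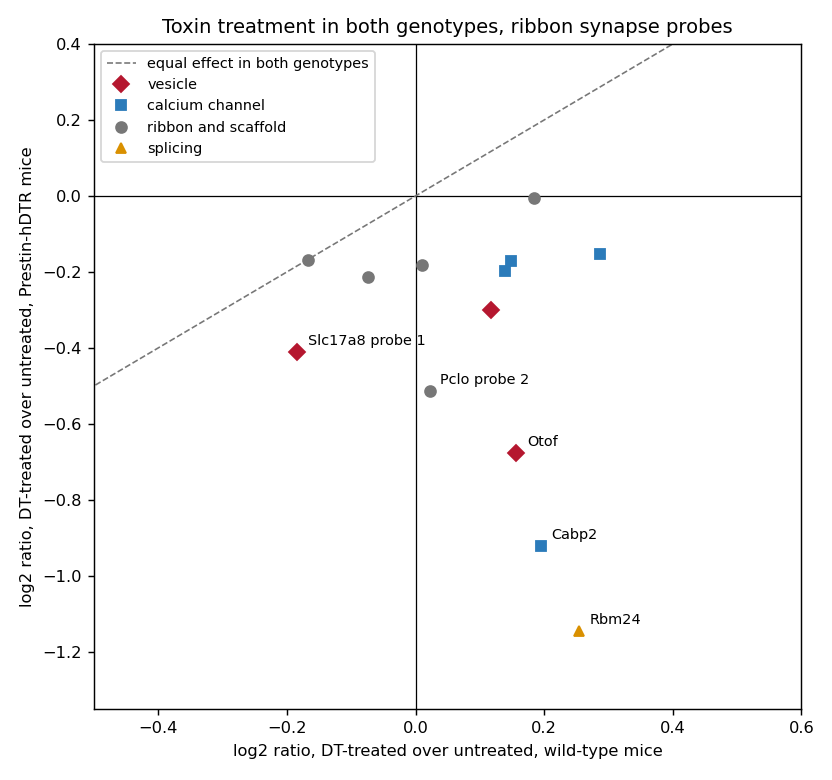
Log2 ratio of DT-treated over untreated mice in wild-type (horizontal) and Prestin-hDTR mice (vertical) for the 13 member probes measured on all arrays, 1 point per probe, coloured by role, with a dashed line of equal effect. Rbm24, Cabp2 and Otof lie farthest below the line, at -1.15, -0.92 and -0.68 in Prestin-hDTR mice.

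The transgene without toxin went with slightly higher levels of several members. In untreated Prestin-hDTR over untreated wild-type mice, the log2 ratio was 0.31 for Cabp2, 0.27 for Rbm24 and 0.20 for Otof. Cacna1d, Cacnb2 probe 1 and Ctbp2 were also higher, by 0.10 to 0.28. The Slc17a8 probes went opposite ways, with -0.13 for probe 1 and 0.25 for probe 2. Bsn (-0.09) and Pclo probes 1 to 3 (-0.14, -0.05 and -0.16) were lower. Rbm24, Cabp2 and Otof thus had their lowest control level in untreated wild-type mice, and their smallest fold against that array. With 1 array per group these steps cannot be told apart from differences between pools.

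Other genes of synaptic transmission were examined as a list of 72 genes, of which 71 were named on the array and 67 tested. Of these 67, 48 were lowest in DT-treated Prestin-hDTR mice and 11 by at least 20% (45 and 10 of the 61 measured on all arrays), beside the 31.2% and 4.42% of all genes given above. Their median log2 ratio was -0.22, with 0 genes lower by 2-fold (0.255% of all genes) and 1 higher by 2-fold (1.08% of all genes). The groups of the list had similar medians, -0.23 for other active zone scaffold genes, -0.15 for channel and calcium genes, -0.22 for vesicle release, -0.18 for vesicle recovery and membrane insertion, and -0.14 for postsynaptic genes.

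Among those measured on all arrays, Cabp5, a relative of Cabp2, had the lowest log2 ratio at -0.94, but its controls differed by 0.74. The calcium sensors Syt7 at -0.67 and Syt2 at -0.60 followed, with controls that differed by 0.49 and 0.40. Both were also lower after toxin in wild-type mice, by log2 ratios of -0.49 and -0.40. The highest were Syt4, a synaptotagmin of dense-core vesicles, at 1.51, the vesicle GTPase Rab27b at 0.36 and the channel subunit gene Cacna2d2 at 0.35. Syt4 gave log2 signals of -1.16, -0.95, -0.83 and 0.53 and was the gene higher by 2-fold. Many genes of the list are used by spiral ganglion neurons as well as by hair cells.

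**Figure D4:**
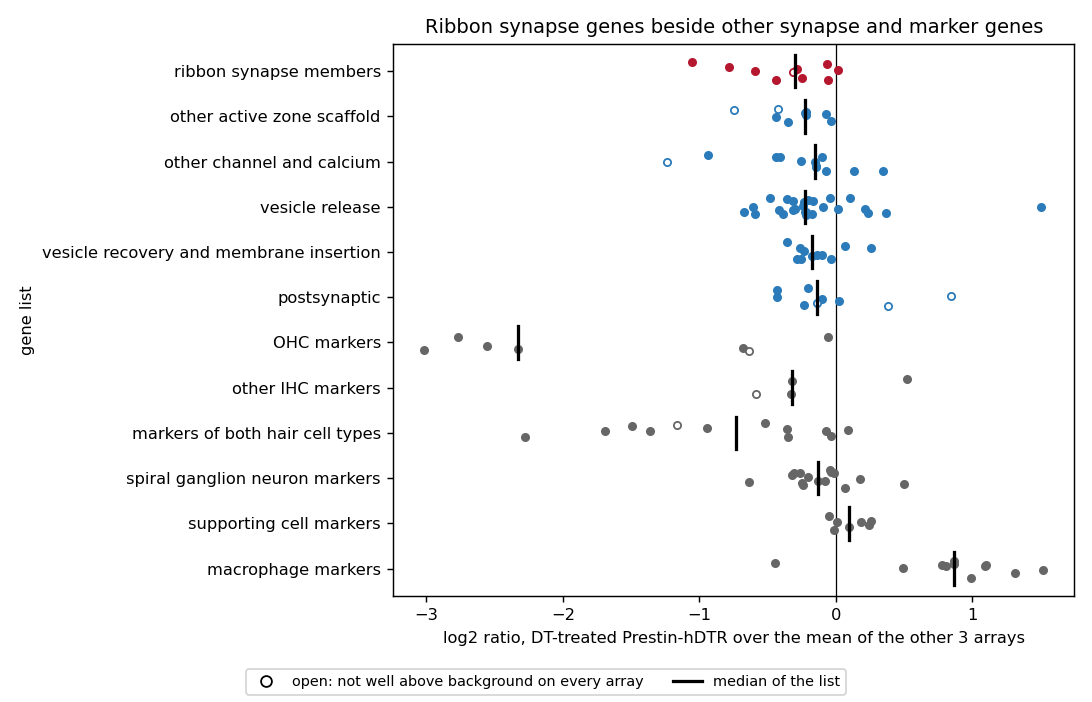
Log2 ratio of DT-treated Prestin-hDTR mice over the mean of the 3 other arrays for the tested genes of each list, 1 point per gene by its brightest probe, with the median as a black bar and open points for genes not well above background on every array. The member genes reach from -1.05 to 0.01 around a median of -0.30, between the median of spiral ganglion neuron markers (-0.13) and that of markers of both hair cell types (-0.73), with signals below background at the values set for them.

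Markers of cell types moved beside the members as follows. All 7 OHC markers were lowest in DT-treated Prestin-hDTR mice, with a median log2 ratio of -2.33. Their signals, in multiples of the 75th percentile, summed to 5.73 beside 23.0 to 25.0 on the control arrays, and to 1.81 beside 4.40 to 4.68 without Ocm, the brightest. Strc had a log2 ratio of -3.02, Chrna10 of -2.77, Chrna9 of -2.56 and Ocm of -2.33. Slc26a5, prestin itself, was not well above background after ablation and was at least 1.31-fold to 1.96-fold lower than on the single control arrays. No member reached the log2 ratio of Strc, Chrna10, Chrna9 or Ocm. Of 12 tested markers shared by both hair cell types, 10 were lowest, with a median of -0.73, or -0.52 over the 11 measured on all arrays. Their summed signal of 24.5, beside 30.7 to 36.1, came mostly from Pvalb, at a log2 ratio of -0.35, and was 2.52 beside 4.45 to 5.90 without it.

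The other IHC markers did not move as 1 group. Slc7a14 had a log2 ratio of -0.32 and Atp2a3 of -0.32, and both were lowest after ablation. Fgf8, not well above background after ablation, was 1.38-fold to 1.63-fold lower at its own dim signal. Its log2 ratios against the single controls, -0.71 to -0.47, carried errors of 0.46 to 0.53. Tbx2, a transcription factor that sets IHC identity and is used in other cochlear cells too, was higher, at 0.52. The signals of these 4 genes summed to 5.32 after ablation and to 4.75 to 4.96 on the control arrays, whereas without Tbx2 they summed to 2.06 beside 2.49 to 2.66.

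Of 15 spiral ganglion neuron markers, 8 were lowest, with a median log2 ratio of -0.13 and a summed signal of 158 beside 166 to 194. Their median was also lower after toxin in wild-type mice, at -0.25, where that of the members was 0.15. Of 11 macrophage markers, 10 were higher by at least 25%, with a summed signal of 35.4 beside 21.9 to 27.1. Supporting cell markers had a median of 0.10 and a summed signal of 235 beside 209 to 227, and the 5 skeletal muscle markers measured on all arrays a median of 0.28, with 2 of them lowest in DT-treated Prestin-hDTR mice. Neutrophil markers summed to 23.7 beside 13.9 to 60.4 and erythroid markers to 80.8 beside 62.3 to 78.4, or 2.93 beside 1.81 to 5.10 without Hba-a1, so the pools also differed in the RNA of blood cells. The part of OHCs, neurons and these other cells in the member levels was not tested.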

How the data were processed

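Cochlear RNA of 4 groups was read by 4 Agilent arrays (Cy3) on 1 slide. The authors scanned them and deposited the output of Agilent Feature Extraction 11.5.1.1, whose intensity per spot is linear and background-subtracted, with no scaling between arrays. The deposited flags for background, saturation and outliers were used as given. A table of scaled intensity that the authors deposited holds the same values divided by 1 constant per array. Here, control and outlier spots were left out, repeated spots averaged, and signals taken as log2 multiples of the 75th percentile over the 39429 probes of an array, after the authors' methods. A flag held for a probe when over 0.5 of its spots had it. With 1 array per group, no test was made, and the precision is limited by that number. The members and gene lists were chosen with earlier results of these data known. All members are named, and of the other synapse genes those 2-fold from every array and the 3 highest and 3 lowest measured on all arrays. Of the marker lists, Slc26a5, Ocm, Strc, Chrna9, Chrna10 and the other IHC markers are named. 4 listed genes were found under older names and Camlg under none. Alternatives used normexp of limma 3.58.1 (R 4.3.3, offset 50), median or quantile scaling, the deposited table, other filters and thresholds, and fewer controls. The steps were tested on simulated data, in Python 3.11.15 with numpy 2.4.6, pandas 2.3.3 and matplotlib 3.10.9. The methods' baseline transformation cancels in ratios. Probe coordinates are those of the array annotation (mm9).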

Additional observations from a re-analysis of the deposited data

Results flagged for a closer look

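Of the 13 member probes measured on all arrays, 10 had opposite directions of the toxin effect in wild-type and Prestin-hDTR mice, higher after toxin in the former and lower in the latter, as had 19.2% of all probes measured on every array. As Prestin-hDTR minus wild-type on the log2 scale, the difference was -1.40 for Rbm24, -1.12 for Cabp2, -0.83 for Otof, -0.53 for Pclo probe 2, -0.44 for Cacna1d probe 1, -0.42 for Slc17a8 probe 2, -0.34 for Cacnb2 probe 1, -0.32 for Cacna1d probe 2, -0.19 for Bsn and -0.19 for Ctbp2. For 7 of the 10 it exceeded the error of the scanner software, as for 7.21% of all probes. With 1 array per group the difference between the genotypes was not tested, and for Ctbp2, Bsn and Pclo probe 2 the effect in 1 genotype was close to 0.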

How the results depend on the processing

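Rbm24, Cabp2, Otof, Pclo and Slc17a8 were the genes with a probe at least 20% lower than on all 3 arrays under the main scaling, median and quantile scaling, normexp and the deposited table, 5 probes each time. Without the floor 6 probes passed. Between 8 (quantile scaling) and 12 probes (no floor) were lowest by any amount. At 1.5-fold in place of 2-fold, 2 probes were called, those of Rbm24 and Cabp2, beside 0.994% of all probes. With no filter, 1 member probe was lowest by at least 20% in untreated Prestin-hDTR mice. This was Cacnb2 probe 3, measured on no array, and the call came from the unequal values set below background. Its own signal was lowest in untreated wild-type mice (-7.66, beside -7.34 in untreated Prestin-hDTR mice). The median log2 ratio of the 10 genes was -0.22 with normexp, -0.27 with median scaling, -0.23 with quantile scaling, -0.32 without untreated wild-type and -0.34 without DT-treated wild-type mice among the controls. Relative to the spiral ganglion neuron markers, an alternative chosen after seeing the data, it was -0.17. The log2 ratio of the gene against the mean of the controls stayed below 0 under every alternative run for Rbm24 (-1.14 to -0.92), Cabp2 (-0.86 to -0.65), Otof, Slc17a8, Pclo and Bsn. Cacna1d was above 0 only relative to the neuron markers (0.06). Cacnb2 was above 0 there, without untreated Prestin-hDTR mice among the controls and with the median probe (up to 0.11), and Ctbp2 ran from -0.04 to 0.14. Of all probes, 1260 were lower by at least 20%, and 779 with normexp. Of 95 alternative values of the comparisons, 87 moved by less than the spread of the controls or, for counts, by less than 1.5 times. Most of the 8 others were the median log2 ratio of the 10 genes itself. It moved with normexp, median and quantile scaling, relative to the neuron markers, and when 1 wild-type array was left out. No paired analysis was possible because each group had 1 array. Dim probes (Rims2, Cacnb2 probes 2 and 3, Pclo probe 4) allow no more than bounds or uncertain estimates, and pools of mice without repeats leave the variation between animals unmeasured.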

Other observations

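Within the list of markers shared by both hair cell types, the genes also differed unequally, with log2 ratios from -2.28 to 0.09. Named after their values were seen, Myo15, the motor of stereocilia tips, had a log2 ratio of -2.28, the transcription factors Gfi1 and Pou4f3 of -1.69 and -1.49, and the transduction channel gene Tmc1 of -1.36. The tip link gene Pcdh15 had -0.07, Loxhd1 -0.04 and Myo6 0.09. The largest of these lay beside the OHC markers, and none of the ribbon synapse genes did. Gfi1 differed by 1.05 among the control arrays.

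Among the spiral ganglion neuron markers, also named after their values were seen, Calb2, a calcium buffer present in IHCs as well as in neurons, was lowest at -0.63, with 2.66, 2.41, 2.53 and 1.90 on the 4 arrays. Prph, a neurofilament of injured and type II neurons, was highest at 0.50, but its level of -2.19 in DT-treated Prestin-hDTR mice was close to the -2.24 of untreated wild-type mice. The vesicular glutamate transporters of neurons, Slc17a6 and Slc17a7, had log2 ratios of -0.48 and -0.38, and the AMPA receptor subunit genes Gria3 and Gria4 of the postsynaptic side both had -0.43.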
